A study of Wolfiporia cocos with 12 samples.

Results

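The isocitrate lyase family and malate synthase were followed as transcripts in the wood-decay fungus Wolfiporia cocos. The members were taken by their InterPro labels, which gave 4 gene models labelled "Isocitrate lyase and phosphorylmutase, core" (92053, 23619, 22442 and 87429) and 1 labelled "Malate synthase" (108206), or 5 of 12746 models in all. Strain MD-104, which causes brown rot, was the sole strain, and the labels give the carbon source as the one difference in how the groups were grown. Triplicate shaken cultures of 250 ml were harvested after 5 days on ground lodgepole pine (Pinus contorta, a softwood, 0.5% w/v), ground aspen (Populus grandidentata, a hardwood, 0.5% w/v), Avicel (a microcrystalline cellulose) or glucose, the reference medium. Poly-A RNA of these 12 cultures, 3 per medium, was sequenced as single reads of 100 nt. The wood libraries were run on lane 2 and the Avicel and glucose libraries on lane 1, so wood against Avicel or glucose cannot be told apart from lane, whereas pine against aspen and Avicel against glucose each lie within a lane.

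Isocitrate lyase splits isocitrate into succinate and glyoxylate, and malate synthase joins glyoxylate to acetyl-CoA to give malate. Together they form the glyoxylate bypass, which skips the steps of the tricarboxylic acid (TCA) cycle that release carbon dioxide and lets cells build sugars from acetyl-CoA. In brown-rot fungi such as Fomitopsis palustris the cycle is also linked to oxalate, an acid these fungi secrete that binds iron. The protein family of isocitrate lyase is broader than the bypass, and also holds 2-methylisocitrate lyase of propionate breakdown, phosphoenolpyruvate mutase and, in other fungi, oxaloacetate acetylhydrolase, which makes oxalate and acetate. The label shared by the 4 models does not say which of these activities a model has.

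The 4 models of the family fell into pairs by the extent of the family match. Models 23619 and 22442 each had 2 hits to the family domain, at residues 167 to 306 and 362 to 448 in 23619 and at residues 186 to 328 and 381 to 467 in 22442. Models 92053 and 87429 had a single hit each, at residues 117 to 216 and 88 to 170. The deposited molecular weights were 60 kDa for 23619 and 37 kDa for 92053, so the model with the longer match was also the heavier protein. In the coordinates of the deposited table, 92053 lies on scaffold 15 at 9480 to 10803 (minus strand), 23619 on scaffold 3 at 250219 to 252261 (plus), 22442 on scaffold 1 at 3604350 to 3607047 (plus) and 87429 on scaffold 1 at 4408941 to 4410017 (plus). Malate synthase 108206, on scaffold 13 at 1360571 to 1364491 (minus), had a single malate synthase domain from residue 5 to 525 and a weight of 60 kDa. No exon or UTR annotation was used. None of the 5 models has a signal peptide entry in the table.

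Levels are in RPKM, read counts scaled by model length and library depth, so levels of different models can be set side by side. As a share of each culture's RNA, RPKM cannot tell fewer cells with a transcript apart from less of it per cell. The spacing of low values gave an estimated depth of 15300000 to 23400000 reads per library, at which 3 reads in a model of 1 kb equal 0.128 to 0.196 RPKM. Every member stood above that level in every library. A change is the difference of mean log2(RPKM + 1), tested with limma over 10184 models, and a call required a change of at least 2-fold with a p under 0.05 after Benjamini-Hochberg adjustment. All 5 members passed the filter of a group mean of at least 1 RPKM. The median log2 change over all tested models was -0.18 for Avicel, -0.12 for aspen and -0.14 for pine, each against glucose, and small changes are read against these shifts.

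The 2 members that differed among the 4 media were 92053 and 23619 (limma F test, adjusted p = 0.0151 and 0.00164), where 29.3% of all tested models differed. The other 3 did not pass, with adjusted p = 0.632 for 22442, 0.107 for 87429 and 0.292 for malate synthase 108206. Between pairs of media, 1 member was called on Avicel against glucose (23619, higher) where 1.67% of tested models were called, and 0.962% of tested models called higher. On pine against glucose 1 was called (92053, lower) where 11.8% of models were, 6.2% lower and 5.61% higher. On aspen against glucose limma called 0 of 5 members, with 2 at an unadjusted p under 0.05, where 11.8% of models were called, 6.56% lower and 5.24% higher. Against Avicel, 92053 and 23619 were called lower on aspen, where 7.23% of models were called and 3.72% lower. Both were also called lower on pine against Avicel, where 9.02% of models were called and 4.47% lower. Pine and aspen were not separated by any member in limma (0 of 5, and 0 at an unadjusted p under 0.05), in a comparison where 0.157% of models were called.

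**Figure D1:**
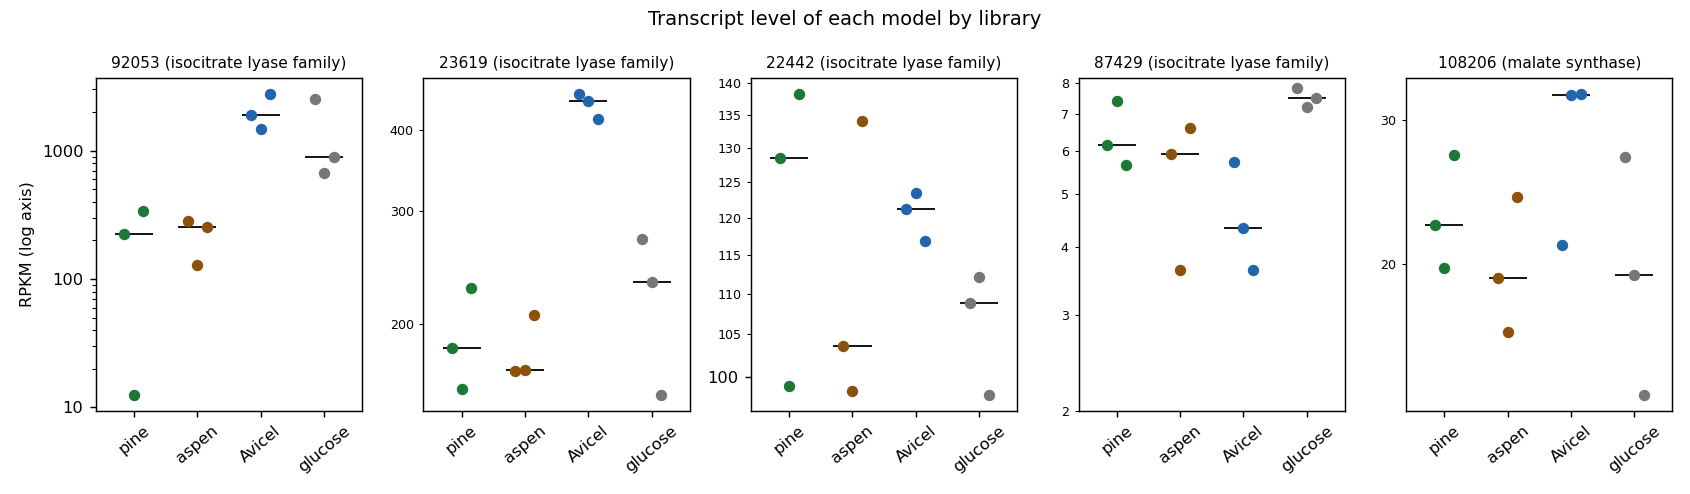
RPKM of each of the 5 models (panels, each with its own log axis) in the 3 cultures of each medium (points) with the median (line). In 92053 every pine and aspen value lies below every Avicel and glucose value, in 23619 the 3 Avicel values lie above all others, and 22442 spans only 97.9 to 138 RPKM over all 12 cultures.

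Model 92053 was the most abundant of the 5 on Avicel and glucose (the defined media) and stood lower in all 6 wood cultures. It stood at 223, 12.4 and 337 RPKM in the pine cultures, at 281, 129.6 and 255 RPKM in the aspen cultures, at 1889.7, 1471 and 2785 RPKM in the Avicel cultures and at 2520.4, 672 and 892 RPKM in the glucose cultures. The highest wood value, 337 RPKM in pine replicate 3, was under the lowest value in a defined medium, 672 RPKM in glucose replicate 2. The share of all models with every wood value below every Avicel and glucose value was not computed, and shares are given for pairs of media. Values lower than and not overlapping those of glucose were seen in 30.5% of all tested models on pine and 29.8% on aspen, and lower than those of Avicel in 14.1% on pine and 13.8% on aspen. Ordered by its mean among all 12746 models, it ranked 666 on pine, 543 on aspen, 28 on Avicel and 48 on glucose, so on the defined media it was among the most abundant transcripts of the fungus.

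On pine against glucose 92053 fell by 3.51 on the log2 scale (SE 0.96, limma adjusted p = 0.0197), with means of 191 ± 165 RPKM on pine and 1361 ± 1009.7 RPKM on glucose (SD, n = 3 each). On aspen, at 222 ± 80.9 RPKM, its log2 change against glucose was -2.44 (95% interval -4.55 to -0.34) and missed the threshold (adjusted p = 0.0841), although the 3 aspen values did not overlap the 3 glucose values. Against Avicel, at 2049 ± 671 RPKM, it fell by 4.30 on pine (adjusted p = 0.00973) and fell by 3.23 on aspen (adjusted p = 0.0412). Avicel and glucose overlapped, with a log2 change of 0.79 for Avicel (95% interval -1.32 to 2.89), and so did pine and aspen, with -1.07 for pine (95% interval -3.18 to 1.04).

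The spread of 92053 between cultures of the same medium was wide. Its within-medium SD was 1.42 on the log2 scale, which is 21st from the widest of 10184 models, where the median model had 0.23. The highest culture exceeded the lowest 27.2 times on pine, 2.17 times on aspen, 1.89 times on Avicel and 3.75 times on glucose. The lowest library was pine replicate 2, at 12.4 RPKM. Without that library the log2 change of pine against glucose was -2.06 (adjusted p = 0.0198) and that of pine against Avicel -2.85 (adjusted p = 0.00552), and aspen against glucose became a call with its value still at -2.44 (adjusted p = 0.00306). The log2 change of pine against aspen turned to 0.38 without it. The pine call against glucose was lost without glucose replicate 1 (log2 change -2.95, adjusted p = 0.0782), without the filter and with the 2 groups alone in the fit. The aspen call against Avicel was lost when any single aspen or Avicel library, or glucose replicate 2 or 3, was left out, at log2 changes of -3.44 to -2.88 over all libraries left out in turn (highest adjusted p = 0.128).

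The genes beside 92053 on scaffold 15 moved in different ways. On its left, with 368 bp between them and on the same strand, lies 140500, labelled cytochrome b5, a small heme protein domain that passes electrons to other enzymes. Model 140500 averaged 44.9 ± 2.56 RPKM on pine, 31.9 ± 2.97 on aspen, 13.2 ± 1.4 on Avicel and 8.25 ± 0.361 on glucose, and it rose by 2.31 on pine and by 1.83 on aspen against glucose (limma adjusted p = 2.72e-07 and 2.18e-06). On the right lies unlabelled 157243, at 0.607 to 2.51 RPKM in the means of the 4 media, which overlaps the next model, 28650, at 12239 to 15687 on the same strand.

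Model 28650 is also labelled cytochrome b5, and of 6432 labelled models ranked it had the highest correlation with 92053 over the 12 libraries (Pearson r = 0.97). It stood at 23.1, 1.58 and 31.1 RPKM on pine, at 25.2, 7.24 and 29.9 on aspen, at 250.6, 253 and 197 on Avicel and at 152, 86.0 and 71.0 on glucose. As with 92053, pine replicate 2 was the lowest library and aspen replicate 2 the next. Since 28650 was picked for its likeness to 92053, its low libraries and its changes are given as a description. Against glucose its log2 changes were -2.97 on pine and -2.39 on aspen, and against Avicel they were -4.21 on pine and -3.63 on aspen. Models 92053 and 28650 lie on opposite strands with their annotated starts facing each other, and since 28650 shares sequence with 157243, reads there may be counted for either.

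**Figure D2:**
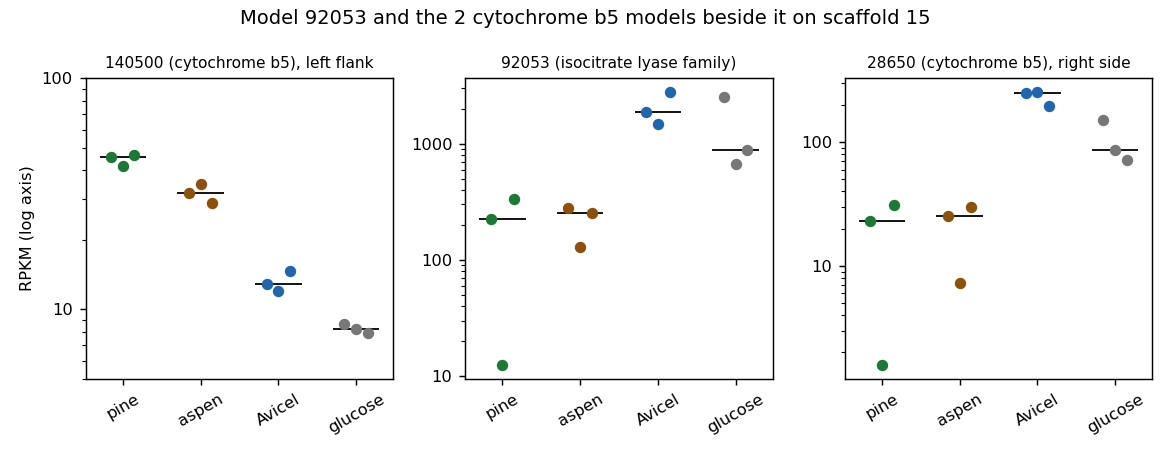
RPKM of 92053 and of the cytochrome b5 models beside it (panels, log axes) in the 3 cultures of each medium (points) with the median (line). Model 140500 is highest on pine and aspen, whereas 92053 and 28650 are lowest there, with pine replicate 2 lowest in both, at 12.4 and 1.58 RPKM.

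Model 23619, with 2 family hits, was highest on Avicel and overlapped among the other media. It stood at 184, 159 and 227 RPKM on pine, at 169, 169.8 and 207 RPKM on aspen, at 456, 444 and 416 RPKM on Avicel and at 271, 233 and 155 RPKM on glucose. The 3 Avicel cultures lay above the other 9, whose values overlapped across pine, aspen and glucose. Avicel values above those of glucose without overlap were seen in 4.96% of all tested models. Values below those of Avicel without overlap were seen in 14.1% on pine and 13.8% on aspen. The share with Avicel above all other cultures was not computed. It rose by 1.03 on the log2 scale on Avicel against glucose (SE 0.20, 95% interval 0.59 to 1.47, limma adjusted p = 0.0193), with means of 439 ± 20.4 and 219.9 ± 59.3 RPKM (SD, n = 3 each).

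On wood 23619 fell relative to Avicel, by 1.22 on pine and by 1.27 on aspen (adjusted p = 0.00177 for each), and both calls held under each alternative tried. Relative to glucose its log2 changes were -0.19 on pine (95% interval -0.63 to 0.25) and -0.24 on aspen (95% interval -0.68 to 0.20), so a 2-fold change in either direction lies outside these intervals. Pine and aspen differed by 0.05 (95% interval -0.39 to 0.49). The rise on Avicel is close to the 2-fold threshold, and its call was lost without Avicel replicate 1, glucose replicate 2 or glucose replicate 3 (log2 change 0.80 to 1.20 over all libraries left out, highest adjusted p = 0.0573). It was also lost with quantile normalization, where the log2 change was 0.98, and with the 2 groups alone in the fit (adjusted p = 0.0562).

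Model 22442, the other model with 2 family hits, kept a narrow range. It stood at 128, 98.9 and 138 RPKM on pine, at 104, 98.4 and 134 on aspen, at 121, 123 and 117 on Avicel and at 109, 112 and 97.9 on glucose. Its log2 changes against glucose were 0.18 on Avicel, 0.06 on aspen and 0.18 on pine, and their 95% intervals all lay between -0.27 and 0.52. The Avicel values lay just above the glucose values without overlap, as did the values of 4.96% of all tested models.

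Model 87429, with a single short family hit, was the rarest. It stood at 6.14, 7.42 and 5.66 RPKM on pine, at 5.92, 3.62 and 6.61 on aspen, at 5.72, 4.33 and 3.62 on Avicel and at 7.84, 7.21 and 7.50 on glucose. Glucose gave the highest mean, 7.52 ± 0.316 RPKM, and neither the Avicel nor the aspen values overlapped it, as 24.6% and 29.8% of all tested models did not overlap in the same direction. The log2 changes against glucose were -0.63 on Avicel (adjusted p = 0.103), -0.45 on aspen (adjusted p = 0.13) and -0.21 on pine (adjusted p = 0.477), none of which passed. At the estimated depth, and with the genomic span as the upper bound of its counted length, aspen replicate 2 holds at most 60 reads of 87429, a counting error of at least 12.9%.

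**Figure D3:**
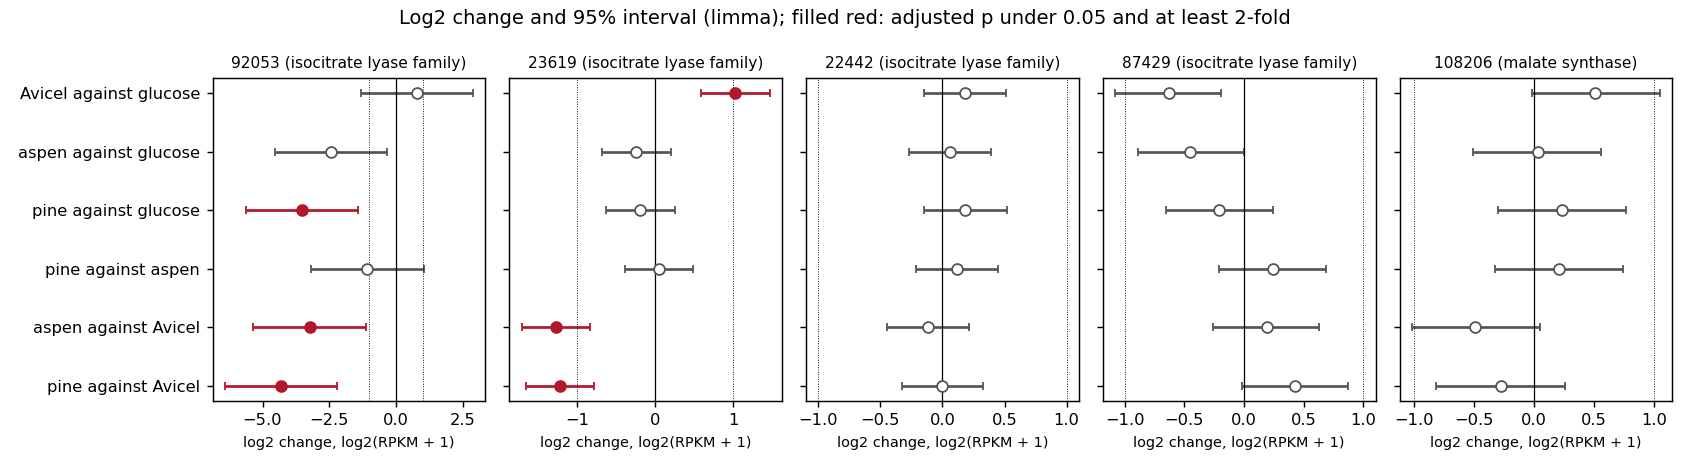
Log2 change on log2(RPKM + 1) with its 95% interval (limma) for each model (panels, own axes) and comparison (rows, named as first medium against second). Filled red points passed an adjusted p under 0.05 and a 2-fold change; dotted lines mark a 2-fold change. Calls are limited to 92053 and 23619.

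The make-up of the family on wood was not that on the defined media. Summed over the 4 models, the level was 542, 277 and 708 RPKM on pine, 559.9, 401 and 602 on aspen, 2473, 2043 and 3322 on Avicel and 2909, 1024 and 1152 on glucose. Model 92053 made up 41.2%, 4.47% and 47.6% of that sum on pine and 50.2%, 32.3% and 42.3% on aspen, against 76.4%, 72.0% and 83.8% on Avicel and 86.7%, 65.6% and 77.4% on glucose. Every wood library was below every defined-medium library in both quantities. As 92053 is the largest part of the sum on the defined media, both largely restate its own levels. The share of all models with such a separation was not computed. Model 23619 made up 32.1% to 57.2% on pine, 30.3% to 42.3% on aspen, 12.5% to 21.7% on Avicel and 9.33% to 22.7% on glucose. As parts of a sum, these shares rise where 92053 is lower. Model 23619 itself had log2 changes of -0.19 on pine and -0.24 on aspen against glucose. Its ratio to 22442, the other long model, was 1.43 to 1.64 on pine, 1.54 to 1.72 on aspen, 3.56 to 3.76 on Avicel and 1.59 to 2.49 on glucose, and this ratio within a library does not depend on how libraries were scaled. These sums, shares and ratios are descriptions and were not tested.

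**Figure D4:**
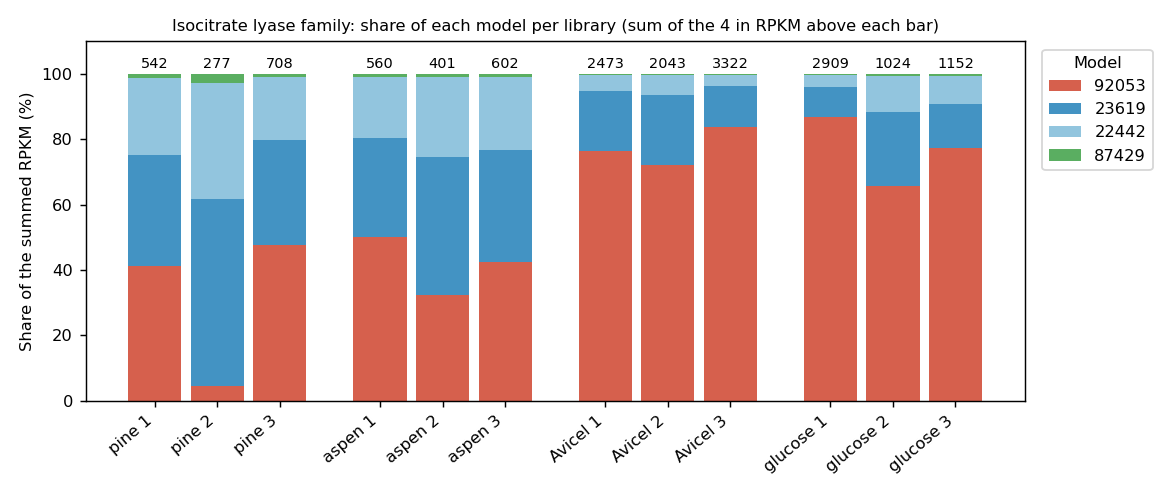
Share (%) of each of the 4 isocitrate lyase family models in their summed RPKM, 1 bar per library, with the sum in RPKM above the bar. Model 92053 holds 65.6% to 86.7% in the Avicel and glucose libraries and 4.47% to 50.2% in the wood libraries.

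Malate synthase 108206, the single model for the second enzyme of the bypass, was not called in any comparison, although a 2-fold rise on Avicel lies within its interval. It stood at 22.3, 19.7 and 27.2 RPKM on pine, at 19.2, 16.5 and 24.1 on aspen, at 21.1, 32.2 and 32.3 on Avicel and at 27.0, 19.3 and 13.8 on glucose. All 4 media overlapped. The largest change was on Avicel against glucose, a log2 change of 0.51 (95% interval -0.02 to 1.05, limma adjusted p = 0.231), and the change was 0.23 on pine (95% interval -0.30 to 0.77) and 0.03 on aspen (95% interval -0.51 to 0.56).

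These values of 108206 are uncertain because the model overlaps others. CHD5-like protein 28346 lies on the same strand at 1362623 to 1364491, inside 108206, and unlabelled 156820 on the other strand at 1362727 to 1363008 is listed at 0 in all 12 libraries. The sources used here do not say whether reads were counted by strand or could count for both models. Model 28346 averaged 11.6 ± 5.08 RPKM on pine, 14.3 ± 1.67 on aspen, 6.40 ± 2.18 on Avicel and 15.2 ± 5.86 on glucose, and was thus lowest where 108206 had its highest mean. Its part in the values of 108206 was not tested.

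Within each library 23619 was more abundant per length than malate synthase. The ratio of 23619 to 108206 was 8.24, 8.04 and 8.36 on pine, 8.82, 10.3 and 8.58 on aspen, 21.6, 13.8 and 12.9 on Avicel and 10.1, 12 and 11.3 on glucose. The Avicel ratios were above all others and the pine ratios below all others, although pine and aspen are separated only by 8.36 on pine against 8.58 on aspen. Over the 12 libraries the log2 levels of 23619 and 108206 had a Pearson r of 0.71, and those of 23619 and 92053 an r of 0.72, whereas 87429 had an r of -0.42 to -0.11 with each of the other 4 members. These correlations are descriptions over libraries that share media and lanes.

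Mass spectrometry values were deposited as 1 emPAI score per medium, a score that rises with the number of peptides seen for a protein, so they have no replicate error. In the authors' deposited table, 3 of the 5 members are among 704 proteins with an entry. Protein 92053 had emPAI scores of 0 on pine, 0 on aspen, 0.645 on Avicel and 0.193 on glucose, from 0, 0, 4 and 2 peptides. Its score was thus above 0 in the media where its transcript was high, a pattern (above 0 on Avicel and glucose, 0 on both woods) shared by 5 of the 704 proteins. Protein 23619 had scores of 0.272 on pine, 0.483 on aspen, 0.276 on Avicel and 0.641 on glucose, from 5, 8, 3 and 9 peptides. Its score was lower on Avicel than on glucose while its transcript was higher there. Of the 213 proteins scored above 0 in all 4 media, 108 were likewise lower on Avicel. Malate synthase 108206 had a score of 0.178 from 3 peptides on glucose and 0 elsewhere, as 51 of the 704 proteins did. The Avicel set is the thinnest, with totals of 2789 peptides on pine, 3097 on aspen, 1260 on Avicel and 2298 on glucose, although the 4 columns of scores have the same sum of 458.6, so scores are not comparable at face value between media. The sources used here do not say which protein fraction was measured.

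**Figure D5:**
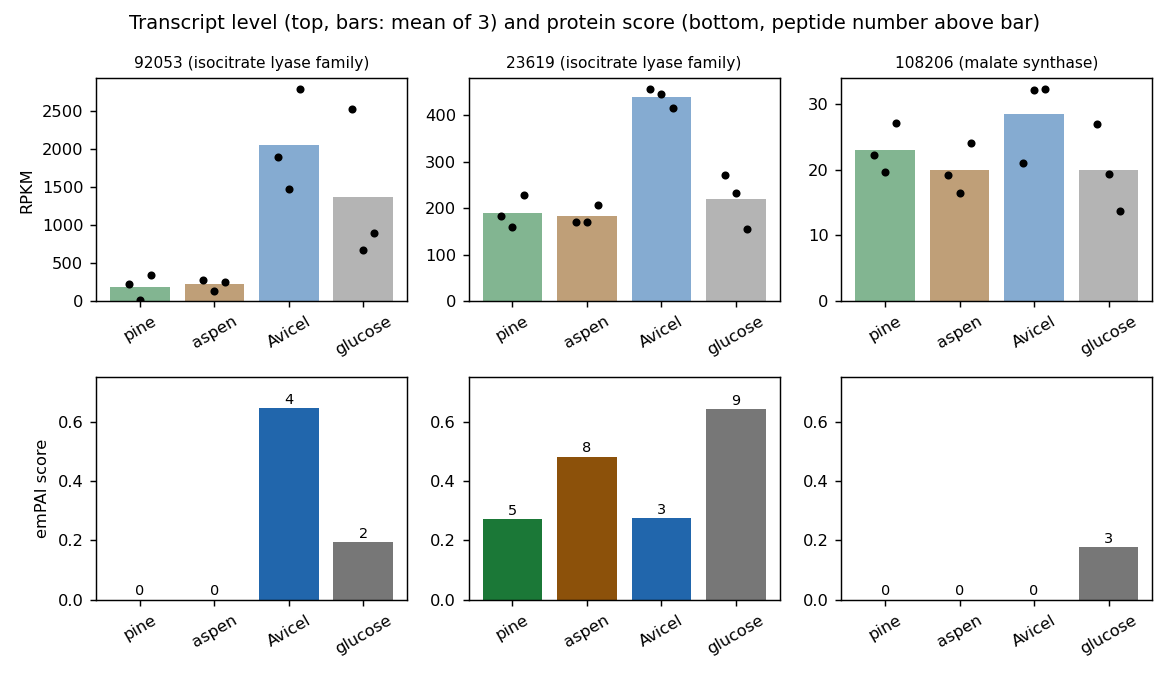
Top: RPKM of the 3 members with a protein entry (bars, mean of 3 cultures; points, single cultures). Bottom: emPAI score with the number of peptides above each bar, 1 value per medium. For 92053 both are lowest on wood, whereas 23619 has its highest RPKM on Avicel and its highest score, 0.641, on glucose.

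Among the labelled models, those most like 23619 over the 12 libraries were mitochondrial carrier 28083 (Pearson r = 0.96), short-chain dehydrogenase/reductase 21811 (r = 0.95) and 22303, the alpha subunit of succinyl-CoA ligase, a TCA cycle enzyme (r = 0.91). Carrier 28083, of a family that moves metabolites across the inner mitochondrial membrane, averaged 15.3 ± 5.41 RPKM on pine, 14.9 ± 3.65 on aspen, 74.5 ± 14.3 on Avicel and 26.9 ± 9.08 on glucose. Its log2 change was 1.46 on Avicel against glucose, and it was -2.25 on pine and -2.26 on aspen against Avicel, a direction that the choice by likeness to 23619 fixes. After 28650, the models most like 92053 were NmrA-like 90172, of a family of redox-sensing and regulatory proteins (r = 0.97), and 90423, labelled as a fungal transcriptional regulatory protein (r = 0.96). In both, pine replicate 2 was the lowest library, at 15.5 and 2.31 RPKM, and aspen replicate 2 the lowest of its group, at 69.1 and 5.18 RPKM. The choice by likeness to 92053, which is low in the same libraries, favours this pattern, so it is only a description. For 22442, 87429 and 108206, which did not pass the F test, the highest correlations were 0.91, 0.95 and 0.88, with major facilitator 144434, a protein of unknown function (70417) and transcription factor IIA subunit 140178.

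The enzymes around the bypass are read against the shares of all tested models called, which were 11.8% on pine, 11.8% on aspen and 1.67% on Avicel against glucose. A list of 17 models has labels of the families of citrate synthase, aconitase and malate dehydrogenase, the steps that the bypass has in common with the TCA cycle. These labels are broader than the steps. They read aconitase/3-isopropylmalate dehydratase for 10 models and citrate synthase-like for 4, and do not say which activity a model has. Of the 17 models 15 were tested, and limma called none in any of the 6 comparisons. With 15 models few calls would be made at those shares. At an unadjusted p under 0.05 there were 7 on pine, 7 on aspen and 5 on Avicel against glucose, with list medians of -0.36, -0.30 and -0.11 beside -0.14, -0.12 and -0.18 over all models. The share of all tested models at an unadjusted p under 0.05 was not computed, so such counts are not read as an excess in any list. With no fold threshold, limma called 1019 models higher and 1717 lower on pine at an adjusted p under 0.05. On aspen the numbers were 1021 and 1668. Within the list of 15, leaving out aspen replicate 1, pine replicate 1, glucose replicate 1 or glucose replicate 3 gave 1 model called against glucose. The list for the rest of the TCA cycle had 12 tested models and is broad as well, with 5 labelled isocitrate/isopropylmalate dehydrogenase. Of these 12 models limma called 1 against glucose, the fumarate reductase/succinate dehydrogenase flavoprotein 136478. It was low throughout, at 0.388 RPKM on aspen and 2.12 RPKM on glucose (log2 change -1.13, adjusted p = 0.0224). That call was lost without aspen replicate 1 or 3 or glucose replicate 1 (highest adjusted p = 0.092). The medians of this list were -0.36 on pine, -0.30 on aspen and 0.14 on Avicel against glucose. Among 5 tested models for gluconeogenesis and anaplerosis, which include phosphoenolpyruvate carboxykinase and malic enzyme, limma also called none. This list is again so short that those shares give few calls. At an unadjusted p under 0.05 in limma there were 4, 3 and 1 on pine, aspen and Avicel against glucose. The list medians there were 0.46, 0.44 and -0.14, beside -0.14, -0.12 and -0.18 over all models.

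Of 25 tested models from families that break fatty acids down to acetyl-CoA (acyl-CoA dehydrogenases and oxidases, crotonases, thiolases and 3-hydroxyacyl-CoA dehydrogenase), 2 rose and 1 fell on pine, 2 rose and 1 fell on aspen, and limma called none on Avicel against glucose (3 at an unadjusted p under 0.05). The 3 calls on each wood are 12% of the list, beside 11.8% of all tested models. The median log2 changes were 0.20, 0.08 and -0.05. Crotonase 94935, of the enoyl-CoA hydratase family, averaged 101 ± 69.4 RPKM on pine and 84.4 ± 51.1 on aspen, against 8.43 ± 0.891 on glucose (log2 changes 3.04 and 2.95, adjusted p = 0.00492 and 0.00567). Its replicate 2 was the lowest of each wood, at 22.5 RPKM on pine and 30.4 RPKM on aspen. Thiolase 129844, of the family that releases acetyl-CoA, fell to 52.9 ± 4.05 RPKM on pine and 39.6 ± 5.70 on aspen, against 127 ± 29.8 on glucose (log2 changes -1.22 and -1.64, adjusted p = 0.00043 and 5.5e-05). Another thiolase, 135018, rose by 1.08 on pine (adjusted p = 0.00248), a call lost without pine replicate 3 or glucose replicate 3 (lowest log2 change 0.92), and crotonase 130286 rose by 1.29 on aspen (adjusted p = 0.000996), a call on a model at 4.63 RPKM on aspen and 1.27 RPKM on glucose that was lost with a pseudocount of 5.

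MmgE/PrpD is a family that includes 2-methylcitrate dehydratase, an enzyme of the same route of propionate breakdown as 2-methylisocitrate lyase. The label does not say whether a model has that activity. Of the 2 models with this label 1 changed. Model 136554 stood at 174, 307 and 376 RPKM on pine, at 467, 721 and 689.8 on aspen, at 1281, 686 and 883 on Avicel and at 236, 106 and 111 on glucose. It rose by 2.70 on Avicel (SE 0.36, limma adjusted p = 0.00318) and by 2.12 on aspen (adjusted p = 0.00139) against glucose, and both calls held under each alternative tried. On pine the log2 change was 0.95 (adjusted p = 0.0742), and against Avicel it fell by 1.75 on pine (adjusted p = 0.00666).

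Of 21 tested models from families with members that make, break or carry oxalate, glyoxylate or acetate, 2 rose and 2 fell on pine, 3 rose and 2 fell on aspen, and limma called none on Avicel against glucose (8 at an unadjusted p under 0.05). The calls are 19% of the list on pine and 23.8% on aspen, beside 11.8% of all tested models for each. The list medians of -0.04, -0.04 and 0.01 beside -0.14, -0.12 and -0.18 over all models. GPR1/FUN34/yaaH model 134850, of a membrane protein family that includes acetate carriers in yeasts, averaged 837 ± 86.6 RPKM on pine, 489 ± 75.6 on aspen, 188 ± 40.1 on Avicel and 129 ± 22.9 on glucose, and rose by 2.69 on pine and 1.92 on aspen (adjusted p = 2.21e-06 and 2.92e-05). FMN-dependent alpha-hydroxy acid dehydrogenase 141082, of a family that includes glycolate oxidase of plants, fell to 115 ± 45 RPKM on pine and 111 ± 52.5 on aspen, against 451 ± 36 on glucose (log2 changes -2.03 and -2.15, adjusted p = 0.00135 and 0.000955). The class V aminotransferases, a family that holds alanine-glyoxylate aminotransferase as well as cysteine desulphurases, moved both ways, with 97792 raised on pine and aspen (log2 changes 2.56 and 2.97) and 166848 lower (-2.32 and -2.23). Each of these 8 calls held under each alternative tried. The remaining model called on aspen was 109324, which shares the label of 141082.

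The authors' deposited table gives ratios and p-values of its own for 4 comparisons. For 92053 the authors' deposited table lists ratios of 0.0852 on pine and 0.183 on aspen against glucose, with p = 0.0928 and 0.0177. For 23619 the authors' deposited table lists a ratio of 2.05 on Avicel against glucose with p = 0.023. Model 87429 has, in the authors' deposited table, a ratio of 0.596 on Avicel with p = 0.0469, and malate synthase has ratios of 1.02 to 1.45 against glucose with p = 0.296 to 0.949. The test behind these p-values and any adjustment of them are not stated, so they are not set against the limma values.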

How the data were processed

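Poly-A RNA of 12 cultures was measured, 3 on each of 4 carbon sources. The authors deposited 1 table of 12746 models on 225 scaffolds, whose library values were taken as RPKM; the values fit that unit, which no header names. The submitters' processing notes name CASAVA 1.8.2; the aligner, counting tool and build were not given in the sources used here. Ratios between media, their p-values, group means, emPAI scores and peptide scores (peptide numbers) come from the authors too, with 1 value per comparison or medium, per the file headers.

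Depth was estimated as 15300000 to 23400000 reads per library from ratios of low values to those of aspen replicate 1. Only 47.4% to 53.5% of the low models compared fell on a ratio of small whole numbers, within 0.3% or the rounding of the values. Several depths gave whole reads about equally well, and the lowest was taken. The floor of 3 reads covers counting error only. The 10184 models that reached a mean of 1 RPKM in any group entered a limma fit (version 3.58.1, R 4.3.3) of log2(RPKM + 1), all 4 media together, with an intensity trend, 8 residual and 3.6 prior degrees of freedom. This scale understates changes of low models. The fit was tested on simulated data. Members, 6 lists of pathway words (87 models) and tests were chosen with earlier results of these data known. Named models were all members, up to 4 called models per list by the F test, the 3 labelled models most correlated with each member, and scaffold neighbours. An isocitrate/isopropylmalate dehydrogenase label was kept out of the malate dehydrogenase list. Alternatives were pseudocounts of 0.25 and 5, no filter or 5 RPKM, median centring, quantile normalization, 2 groups per fit, a replicate block, no fold threshold and each library left out.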

Additional observations from a re-analysis of the deposited data

How the results depend on the processing

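Each of the 30 log2 changes of members was recomputed under 21 alternatives, and of 630 values 600 kept their direction and their side of the threshold, 18 lost a call, 3 gained one and 9 turned direction. The values that turned were uncalled. They were 22442 with median centring on pine against Avicel (-0.07), and, with a library left out, 22442 on that comparison (-0.09 to 0.15) and on aspen against glucose (-0.07 to 0.15), 108206 on aspen against glucose (-0.20 to 0.26), 92053 on pine against aspen (-1.94 to 0.38) and 23619 on pine against aspen (-0.08 to 0.17). The number of members called on Avicel against glucose was 0 under quantile normalization, 0 when the fit held just the 2 groups, and 0 to 1 with a library left out. On aspen against glucose it was 1 with the replicate block, 1 with only the 2 groups and 0 to 1 with a library left out, the member being 92053. On pine against glucose it was 0 without the filter, 0 with only the 2 groups and 0 to 1 with a library left out. On aspen against Avicel it was 1 without the filter, 1 with quantile normalization and 1 to 2 with a library left out. Without the filter 1 member passed the F test. The cause of these differences was not tested. With no fold threshold the models called against glucose in at least 1 medium numbered 4 for the steps shared by bypass and TCA cycle (0 to 1 with a library left out), 4 for the rest of the TCA cycle, 1 for gluconeogenesis and anaplerosis, 10 for acetyl-CoA supply and 9 for oxalate and glyoxylate side reactions, where the main counts were 0, 1, 0, 4 and 5. Calls over all 10184 models rose as well, on aspen against glucose from 534 higher and 668 lower to 1021 and 1668. On pine they went from 571 and 631 to 1019 and 1717, and on Avicel from 98 and 72 to 123 and 192. The share of all models called in at least 1 medium was not computed, so these rises are not read as a result about the lists. For the rest of the TCA cycle the count was 0 with a pseudocount of 5, with a filter of 5 RPKM and with quantile normalization, and 0 to 1 with a library left out.

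No consistent pairing of the libraries by replicate number was seen. Of 18 pairs of same-numbered libraries from different media 7 had correlated deviations over 0.1, with r from -0.418 to 0.437. Of 36 differently numbered pairs 10 did, with r from -0.418 to 0.333. The replicate block added the call on 92053 on aspen against glucose (limma adjusted p = 0.031) to the members and changed no other call of a member. Depth limits 87429 most, and 3 cultures per medium leave the intervals of 92053 wide.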
